A study of Mus musculus with 28 samples.

Results

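The genes described here are 31 mouse genes of homologous recombination, of the Fanconi pathway, of mismatch repair and of the kinases that answer DNA damage. They were chosen by name for their role in these pathways, by a rule that uses no measured value, but with earlier results of these data known. All 31 were among the 37974 identifiers of the single-cell table, and 29 were among the 36358 identifiers of the tissue table, where Fancm and Msh6 were not analysed here. All animals were C57BL/6 mice. The tissue was the ventricle wall beside the striatum (EZ-SEZ/SVZ, the ependymal zone with the subependymal or subventricular zone), with 3 samples from mice of 18 months and 3 from mice of 3 weeks, and the study calls this experiment total RNA-seq. The 22 single cells came from the same wall of mice of 1 month and 24 months, were sorted, picked by hand, amplified by Smart-seq2 and chosen by quantitative PCR of marker genes. They comprised Prom1+ cells (3 of 1 month and 3 of 24 months), Dlx2+/Dcx+ cells (5 and 4) and Gfap+ cells (2 and 5). Neither the labels nor the methods name the animal of a cell, so each subpopulation and age counted as 1 sample and no test was made between ages or subpopulations of cells. The study counts its tissue replicates as mice, while the labels do not tie each sample to an animal, so the p-values measure the spread between these samples. The extraction text of the tissue samples is the one of the sorted cells, and the description of the tissue follows the study's methods.

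Homologous recombination copies the lost sequence of a broken chromosome from the sister chromatid and therefore serves cells that have replicated their DNA. The broken ends are held and cut back to single strands, BRCA1 and BRCA2 with their partners prepare these strands for pairing with the intact copy, and helicases and motors take the joined molecules apart. The Fanconi pathway opens crosslinks between DNA strands: a core complex of many subunits attaches ubiquitin to FANCD2 and FANCI, which then recruit nucleases and the recombination proteins. Mismatch repair removes bases that the replicative polymerases paired wrongly. In the ventricular wall, stem cells and the neuroblasts they produce divide throughout life, whereas mature oligodendrocytes and neurons do not.

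FPKM, the unit of both tables, divides the fragments of a gene by its transcript length in kilobases and by the depth of the sample. In the tissue the smallest steps between low values gave an estimated depth of 36.7 to 44.4 M fragments per sample (M, mega), by an estimate in which 62.3% to 63.7% of the low values lay within 0.02 of a whole multiple, and the depth of the cells could not be read from the values, and the reads per cell that the study lists were not used. By this estimate 1 step was worth 0.00289 to 0.0035 FPKM for Exo1 and 0.00325 to 0.00393 FPKM for Brip1, the member with the lowest levels. Cells had 4398 to 6626 genes above 1 FPKM. Of common genes that were checked, Actb was listed at 0 in 6 of the 22 cells and Hprt in 4. Gapdh, Eef1a1, Eef2, Rplp0, Ubb, Tubb5, Ppia and Tbp were listed at 0 in none. A 0 in a cell means only that the gene is listed at 0. The Prom1+ cells had 4 to 5 of 5 Prom1+ markers above 1 FPKM and the Dlx2+/Dcx+ cells 8 to 10 of 10 neuroblast markers. Prom1, Gfap, Dlx2 and Dcx were among the genes by which the cells were chosen, so their detection is no independent check. The Dlx2+/Dcx+ cells also had 0 to 3 of the Prom1+ markers, with Egfr in 6 and Slc1a3 in 7 of the 9 cells. The Gfap+ cells had 8 to 10 of 10 oligodendrocyte markers, with a summed level of 39742 to 89625 FPKM against at most 279 in Prom1+ and 353 in Dlx2+/Dcx+ cells. Gfap itself was above 1 FPKM in all 7 of them, between 48.7 and 194 FPKM. Of the other astrocyte markers, Aqp4 and Aldh1l1 were above 1 FPKM in 0 of the 7, Gja1 in 2, Slc1a2 in 3, Aldoc in 5 and S100b in 6. Gfap+ is therefore used as their label and not as the name of an astrocyte. In the tissue, neuroblast markers summed to 250 to 255 FPKM at 18 months and 375 to 418 at 3 weeks, oligodendrocyte markers to 3787 to 4492 and 19960 to 22170, and Olig2 was listed at 0 in all 3 samples of 18 months. Rad54b shares 35.8% of its exon bases with Fsbp on the same strand and can hold reads of Fsbp. The exons of other members overlap a neighbour on the opposite strand, such as Fanci with Polg (16%) and Rad54l with Lrrc41 (15.4%). These can also hold reads of the neighbour, since the counting is not stated to use strand.

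The RefSeq table gave a promoter window, 250 bases before to 50 bases after a start site in GRCm38.p6, for 25 of the 31 members, and none for Fancd2, Xrcc2, Rad54b, Rad50, Nbn and Exo1. E2F factors, which drive S phase genes, bind sequences such as TTTCGCGC, TTTGGCGC, TTTCCCGC and TTTGCCGC. These letters were searched on both strands, and they were found in the windows of 7 of the 25 members (28%), Fancg, Bard1, Brca2, Rad51c, Msh3, Msh6 and Chek2. They were found in 704 of the 27025 genes with a window (2.6%) and in 575 of the 17492 protein-coding genes (3.3%). The stretches below show the matches in capitals, 5′ to 3′ on the strand of the gene, because these are the members that share this letter pattern and their age differences can be read against it. Rad51c had a match in each of 2 windows, and the overlapping matches of Msh3 lie on opposite strands.
Bard1, chr1:71103148-71103207, minus strand: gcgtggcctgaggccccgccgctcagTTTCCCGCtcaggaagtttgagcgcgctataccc
Brca2, chr5:150522427-150522486, plus strand: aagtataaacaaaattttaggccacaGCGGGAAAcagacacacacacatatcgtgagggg
Msh3, chr13:92355168-92355231, minus strand: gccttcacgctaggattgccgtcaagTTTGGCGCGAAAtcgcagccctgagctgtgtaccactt
Chek2, chr5:110839805-110839864, plus strand: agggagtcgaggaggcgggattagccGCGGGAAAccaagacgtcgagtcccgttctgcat
Fancg, chr4:43010336-43010363, minus strand: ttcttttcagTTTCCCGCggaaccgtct
Rad51c, chr11:87404478-87404505, minus strand: tttccagcgcTTTCGCGCctcttgctct
Rad51c, chr11:87404942-87404969, minus strand: ccccgcgaggGCGGGAAAagcaaggggt
Msh6, chr17:87975055-87975082, plus strand: tcctcccgacTTTCCCGCcagcggcggc

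The windows of Brca1, Rad54l and Blm, which had their 2 ages apart both in the tissue and in the Prom1+ cells as described below, held none of the E2F letters. Each held the CCAAT box (CCAAT, either strand), which was found in 16 of the 25 members (64.0%) and in 42.3% of the protein-coding genes, and Rad54l and Blm also held the GC box (GGGCGG, either strand), found in 18 of the 25 members (72.0%) and in 49.2% of the protein-coding genes. The bases upstream of the annotated start are given with both boxes in capitals. A further element of cell cycle genes, TTTGAA, was found in 1 of the 25 members (4.0%) and in 18.5% of the protein-coding genes. A match is a run of letters and not a bound site, and the missing match in a window of this length says nothing of the factor.
Brca1, chr11:101551956-101552205, minus strand: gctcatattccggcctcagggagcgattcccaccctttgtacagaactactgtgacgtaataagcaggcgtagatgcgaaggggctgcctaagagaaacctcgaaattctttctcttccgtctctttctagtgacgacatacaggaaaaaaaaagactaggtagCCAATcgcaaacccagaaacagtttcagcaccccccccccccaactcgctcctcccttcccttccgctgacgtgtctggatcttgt
Rad54l, chr4:116123691-116123939, minus strand: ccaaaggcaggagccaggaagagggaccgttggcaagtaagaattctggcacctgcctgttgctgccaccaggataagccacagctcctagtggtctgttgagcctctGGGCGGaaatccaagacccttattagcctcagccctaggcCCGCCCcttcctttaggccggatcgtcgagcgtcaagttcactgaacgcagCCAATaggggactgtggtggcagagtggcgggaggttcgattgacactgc
Blm, chr7:80535120-80535248, minus strand: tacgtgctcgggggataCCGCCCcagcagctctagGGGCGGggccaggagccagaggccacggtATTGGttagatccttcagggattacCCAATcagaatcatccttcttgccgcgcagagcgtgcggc

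In the tissue, the comparison of 18 months with 3 weeks asked how the transcripts of the ventricular wall differ between old and young mice. No member passed the test. In simulated data the same test recovered 35.5% of the genes changed by 1 on the log2 scale, so 0 calls do not show that no member differed. Of the 29 members, 21 had at least 1 FPKM in at least 3 of the 6 samples and were tested with limma on log2(FPKM + 1), and 0 were lower and 0 higher at an adjusted p under 0.05, where 2.42% of the 12287 genes tested were called lower and 2.51% higher. At an unadjusted p under 0.05, 3 members were lower (Rad54l, Blm and Brca1; 8.93% of all genes tested) and 1 was higher (Fancc; 15.4%), and none also passed an absolute log2 fold change of 1, the limits of the study's methods, which 3.9% of the genes tested passed. The median log2 fold change of the 21 members was −0.01, with 11 below and 10 above 0, and that of all genes tested was 0.09. The summed level of the 29 members was 72.7 to 86.1 FPKM at 18 months and 77.7 to 82.9 at 3 weeks, so the ages overlapped.

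Separate from the test, 10 of the 29 members had no overlap between the 3 samples of each age. In 9 (31%) every sample of 18 months lay below every sample of 3 weeks, as it did in 8.31% of the 25147 genes with any value above 0, and in 12.9% of the 8726 of the tissue table that were above 1 FPKM in at least 3 of the single cells. These were Fanca, Fanci, Brca1, Bard1, Palb2, Brip1, Rad54l, Exo1 and Blm. In 1 member (3.4%), Fancc, every sample of 18 months lay above, as in 15.4% of the genes. Of the 9, 6 were under the filter on low values and were not among the 21 tested. Brca1 passed that filter through its 3 samples of 3 weeks alone, so that its place among the tested members depends on the age in which it was higher. In bulk tissue, fewer cells of a kind and less RNA in each cell cannot be told apart.

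**Figure D1:**
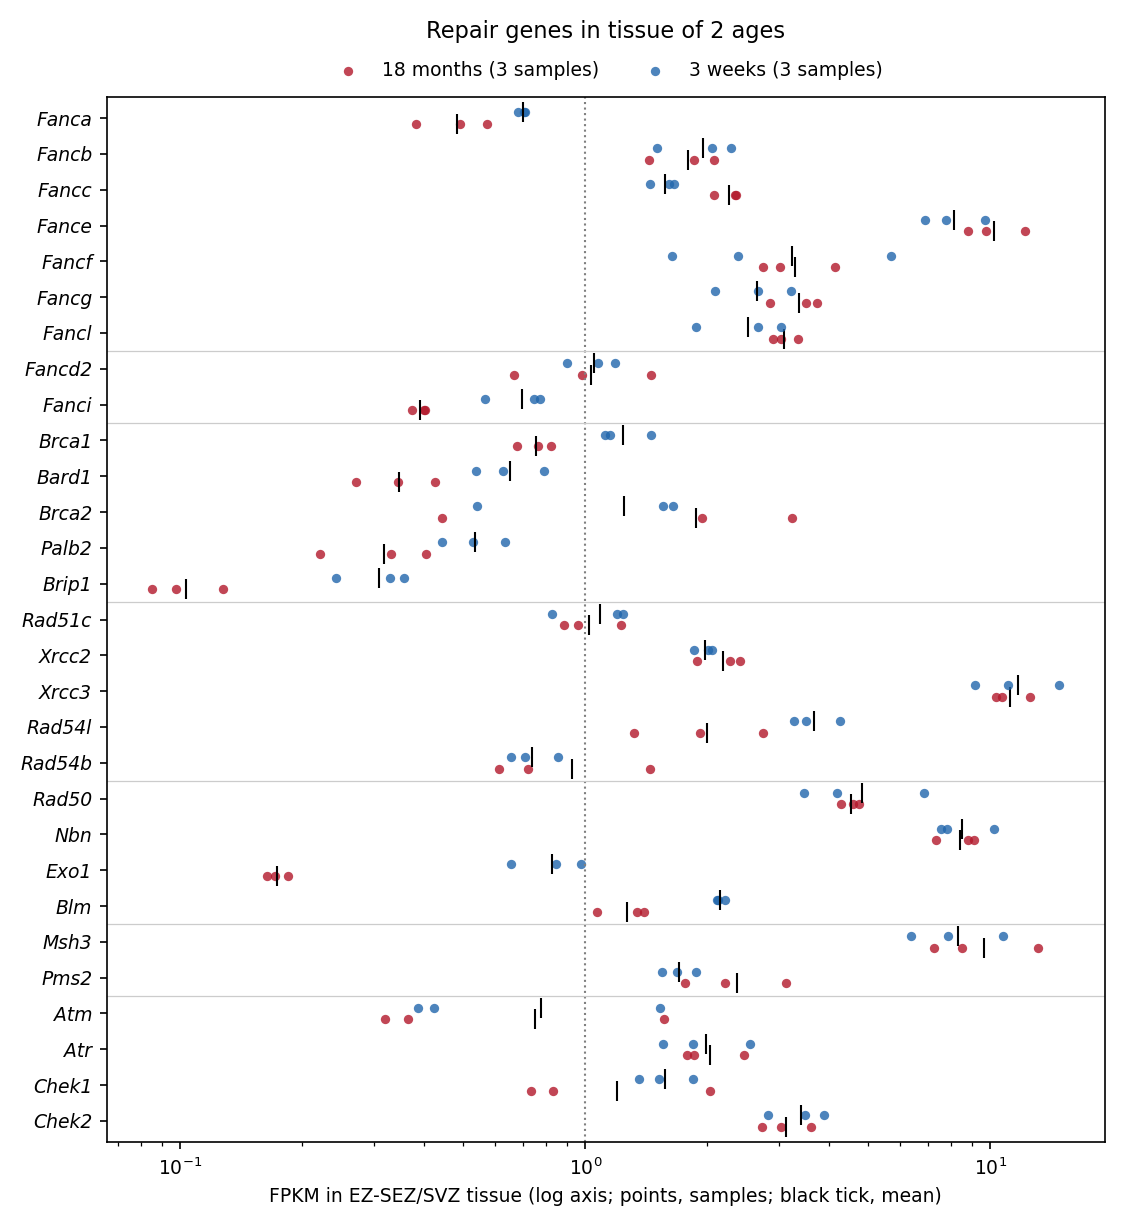
Level of each of the 29 members in the tissue (FPKM, log axis), with a point for each of the 3 samples of 18 months (red) and of 3 weeks (blue), a black tick for the mean and a dotted line at 1 FPKM. Fance, Xrcc3, Nbn and Msh3 lay highest with overlapping ages, and Exo1 and Brip1 lay lowest at 18 months, with every sample of 18 months below every sample of 3 weeks.

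**Figure D2:**
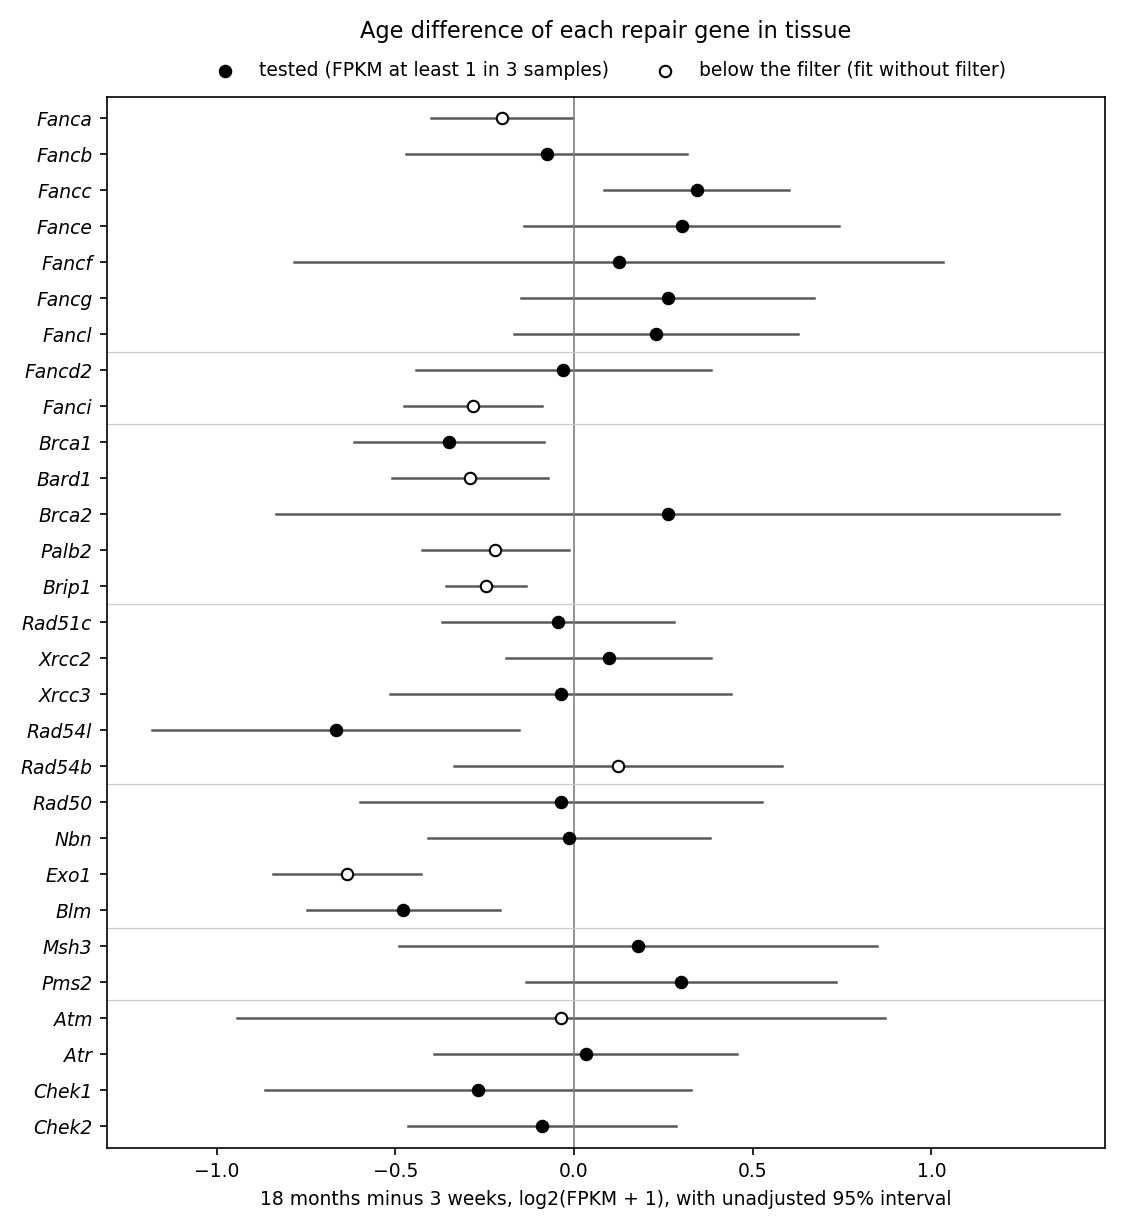
Age difference of each member in the tissue (18 months minus 3 weeks, log2(FPKM + 1)) with its unadjusted 95% interval. Filled points are the 21 tested members, and open points are the 8 below the filter, from a fit without the filter. Only Fancc among the tested members has an interval wholly above 0, and Brca1, Rad54l and Blm have intervals wholly below it.

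No subunit of the Fanconi core complex, the ubiquitin ligase of the pathway, passed the test. Of 6 tested, 5 had a log2 fold change above 0, as did 58.8% of all genes tested, and those of Fancb and Fancf changed sign when a sample was left out. Fancc, a subunit that links the parts of the complex, was at 2.34, 2.35 and 2.08 FPKM at 18 months and at 1.65, 1.44 and 1.61 FPKM at 3 weeks. The 2 ages did not overlap. limma gave a log2 fold change of 0.34 ± 0.10 (standard error) and an adjusted p of 0.128, which did not pass. Fance, which joins the core complex to FANCD2, was the highest of the Fanconi genes, at 8.81 to 12.2 FPKM at 18 months and 6.89 to 9.69 at 3 weeks, with a log2 fold change of 0.30 (95% interval −0.14 to 0.74). Fancg, a scaffold subunit, had a log2 fold change of 0.26 (95% interval −0.15 to 0.67), and Fancl, the ligase subunit itself, of 0.23 (95% interval −0.17 to 0.63). Fancb, an X-linked subunit, was at 1.44 to 2.29 FPKM over both ages. Fancf, an adaptor encoded by a gene with a short transcript, had the widest scatter of the core genes, with 1.63 to 5.7 FPKM among the samples of 3 weeks alone, and its interval was −0.78 to 1.03. Fanca, another core subunit, was below the filter, at 0.492, 0.572 and 0.382 FPKM at 18 months and 0.683, 0.711 and 0.706 FPKM at 3 weeks. Its ages were apart in the opposite direction to those of Fancc. The ID complex is the pair FANCD2 and FANCI that the core complex modifies. Fancd2 was at 0.668, 0.982 and 1.45 FPKM at 18 months and 1.19, 0.902 and 1.07 FPKM at 3 weeks, with complete overlap. Fanci was at 0.4, 0.373 and 0.401 FPKM at 18 months and 0.566, 0.775 and 0.746 FPKM at 3 weeks. The partner genes thus differed in whether their ages overlapped, and Fanci was not in the main test.

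Of the BRCA1 and BRCA2 complexes, 4 of 5 genes had every sample of 18 months below every sample of 3 weeks (8.31% of all genes), and Brca2 did not. Of these 4, Bard1, Palb2 and Brip1 were below the filter and Brca1 did not pass the test. Brca1 (chr11:101488764-101551955), the ligase that directs broken ends towards recombination, was at 0.766, 0.679 and 0.825 FPKM at 18 months and 1.12, 1.46 and 1.15 FPKM at 3 weeks. The mean at 3 weeks was 1.64 times that at 18 months, and limma gave a log2 fold change of −0.35 (± 0.11 SE, adjusted p = 0.13). Bard1, the obligate partner of BRCA1, was at 0.271, 0.426 and 0.344 FPKM at 18 months and at 0.537, 0.789 and 0.626 FPKM at 3 weeks, 1.88 times the level of 18 months. Palb2, which bridges BRCA1 and BRCA2, was at 0.331, 0.221 and 0.404 against 0.634, 0.443 and 0.529 FPKM. Brip1, a helicase bound by BRCA1 and also a Fanconi gene, was at 0.128, 0.0852 and 0.0974 FPKM at 18 months and 0.329, 0.356 and 0.242 FPKM at 3 weeks, a ratio of 2.99. These were the largest ratios of the group, at levels under 1 FPKM. Without the filter, the log2 fold change of Brip1 was −0.25 (standard error 0.04, adjusted p = 0.0706 from limma) and that of Bard1 was −0.29 (adjusted p = 0.184 from limma). Brca2, which acts on the single strands at broken ends, scattered within each age, with 0.443, 1.94 and 3.24 FPKM at 18 months and 0.541, 1.64 and 1.56 FPKM at 3 weeks. Its 95% interval of the log2 fold change, −0.83 to 1.36, was the widest of the tested members.

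Rad51c, Xrcc2 and Xrcc3 encode related proteins that assist strand pairing, and the RAD54 motors act on the intact duplex. Rad54l (chr4:116094264-116123690), the main motor, was at 2.75, 1.92 and 1.32 FPKM at 18 months and 3.28, 3.5 and 4.26 FPKM at 3 weeks. The ages were apart, and the limma log2 fold change of −0.67 (± 0.21 SE, adjusted p = 0.133) was the largest in size among the 21 tested members. Rad54b, its relative, was at 0.611 to 1.44 FPKM at 18 months and 0.654 to 0.858 at 3 weeks and overlapped. The other 3 genes of this group did not differ beyond their spread. Rad51c, a subunit shared by complexes of these proteins, had a log2 fold change of −0.04 (95% interval −0.37 to 0.28). Xrcc2, of a complex that assists strand pairing, was at 1.86 to 2.41 FPKM over both ages. Xrcc3, which acts with RAD51C, was the most abundant of the 29 by its mean of either age, 11.2 ± 1.16 FPKM at 18 months and 11.7 ± 2.88 at 3 weeks (SD, n = 3 each), with an interval of −0.51 to 0.44.

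Among the genes of break ends and DNA unwinding, the level per length separated the ages in the nuclease and the helicase and not in the end-binding complex. Exo1 (chr1:175880581-175913489), the exonuclease that cuts ends back and also removes the mismatched strand in mismatch repair, was at 0.185, 0.171 and 0.164 FPKM at 18 months and 0.654, 0.846 and 0.978 FPKM at 3 weeks. The mean at 3 weeks was 4.77 times that at 18 months, the largest ratio of any member, and all samples lay under the filter of 1 FPKM. Without the filter its limma log2 fold change was −0.63 (± 0.08 SE, adjusted p = 0.0354 over 25147 genes), and with a pseudocount of 0.1 as well, a setting chosen after the data were seen, it was −1.75 (adjusted p = 0.0464 from limma). With TPM in place of FPKM, it was −1.21 and was also called, but Exo1 passed that filter through its samples of 3 weeks alone (2.18 to 3.07 TPM, against 0.55 to 0.616 at 18 months). Blm (chr7:80454733-80535119), the helicase that takes joined molecules apart, was at 1.4, 1.34 and 1.07 FPKM at 18 months and 2.22, 2.12 and 2.13 FPKM at 3 weeks. Its limma log2 fold change of −0.48 (± 0.11 SE, adjusted p = 0.0711) was the nearest to the threshold among the tested members. Rad50, which tethers the ends, and Nbn, which brings ATM to them, had log2 fold changes of −0.04 (95% interval −0.60 to 0.53) and −0.01 (95% interval −0.41 to 0.38). Nbn was at 7.32 to 10.2 FPKM over both ages, far above Exo1 and Blm on the same scale.

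The mismatch repair genes and the damage kinases gave no difference beyond their spread in the tissue. Msh3, which finds larger loops of unpaired bases, was at 7.26, 13.1 and 8.49 FPKM at 18 months and 7.85, 10.7 and 6.37 FPKM at 3 weeks. Pms2, an endonuclease subunit of mismatch repair, was at 2.21, 1.76 and 3.13 against 1.68, 1.87 and 1.55 FPKM, and its log2 fold change was 0.30 (95% interval −0.13 to 0.73). Among the kinases, Atr and Chek1, which answer stalled forks, and Atm and Chek2, which answer breaks, overlapped between the ages. Chek1 was at 0.833, 0.734 and 2.03 FPKM at 18 months and at 1.52, 1.36 and 1.84 FPKM at 3 weeks, so that 1 sample of 18 months stood above all of 3 weeks. Atm was at 0.319 to 1.56 FPKM at 18 months and 0.385 to 1.53 at 3 weeks, with 1 high sample in each age, and it was below the filter. Atr had an interval of −0.39 to 0.46 and Chek2 of −0.47 to 0.28.

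Other genes of the same pathways formed a list of 61 apart from the members, of which few passed the test. Of the 49 found in the tissue 44 were tested. Of these, 2 were lower and 0 higher at an adjusted p under 0.05, and their median log2 fold change was −0.01. Both are named here. Ube2t, the conjugating enzyme that FANCL uses, was at 0.913, 1.25 and 1.6 FPKM at 18 months and 2.8, 3.18 and 2.63 FPKM at 3 weeks, with a limma log2 fold change of −0.79 (± 0.15 SE, adjusted p = 0.0479). Without the filter its adjusted p from limma was 0.101. Eme1, a subunit of a nuclease that cuts branched DNA, was at 0.279 to 0.404 against 1.18 to 1.3 FPKM (log2 fold change −0.75, standard error 0.09, adjusted p = 0.0157 from limma). Eme1, like Brca1, passed the filter through its samples of 3 weeks alone. Mki67 was not analysed in the tissue here.

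Lists of other processes stood as follows beside the members. Of 7 end joining genes tested, which rejoin ends without a template, 0 were called, with a median of −0.14, and of 24 excision repair genes, which replace damaged bases, 1 was lower and 0 higher, with a median of 0.00. The 1 was Neil3, a glycosylase, at −0.996 (standard error 0.13, adjusted p = 0.0196 from limma), which passed the filter through its samples of 3 weeks alone. Of the 24 DNA replication genes tested, 7 were lower and 0 higher, with a median of −0.51, and of the 17 mitosis genes 12 were lower and 0 higher, with a median of −1.20. Rrm2, the ribonucleotide reductase subunit, Mcm10 and Mcm2, both of the replicative helicase machinery, changed by −1.85, −1.25 and −1.13, and Ube2c, Top2a and Tpx2 of mitosis by −2.26, −1.68 and −1.64. The mitosis list summed to 34.7 to 38.7 FPKM at 18 months and 127 to 138 at 3 weeks. Division genes, and the sums of the neuroblast and oligodendrocyte markers above, were thus lower in the samples of 18 months. Exo1, Blm, Brca1 and Rad54l, none of which was called in the test, had lower values in the same samples. Of the 8 neuroblast markers tested, 6 had a log2 fold change below 0 and 2 above it. Their ages were apart in 4 that were lower and 1 that was higher at 18 months. Mcm10 too, and Ttk among the 12 mitosis genes called, passed the filter through their samples of 3 weeks alone. Neuron markers, at 1906 to 2427 FPKM in sum at 18 months and 1028 to 1638 at 3 weeks, and ependymal markers, at 113 to 131 and 88.6 to 110, were apart in the other direction, and 3 of the 5 Prom1+ markers were apart and lower at 18 months. Their part in these values was not tested. The meiotic recombination list had 1 of 8 genes tested and 0 called.

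In the single cells, most member values were low or listed at 0, and the share above 1 FPKM was highest in Prom1+ and lowest in Gfap+ cells. Of the values of the 31 members, 89 of 186 (47.8%) were above 1 FPKM in Prom1+ cells, 102 of 279 (36.6%) in Dlx2+/Dcx+ cells and 33 of 217 (15.2%) in Gfap+ cells. Over the 11332 genes above 1 FPKM in at least 3 cells, these shares were 52.7%, 46.6% and 45.0%. For the DNA replication list they were 78.2%, 73.8% and 39.3%, for the mitosis list 93.3%, 78.9% and 33.6%, for the further pathway genes 60.4%, 54.1% and 34.2%, for excision repair 45.7%, 42.3% and 37.8%, for end joining 53.3%, 27.8% and 31.4%, and for meiotic recombination 9.3%, 8.6% and 7.9%. In 29 of the 31 members (93.5%, against 58.1% of the expressed genes) the share of cells above 1 FPKM was higher in Prom1+ than in Gfap+ cells, although in 5 of them the number of cells was the same and only the totals of 6 and 7 differed. In 1, Fanca, it was lower, and Fancf was above 1 FPKM in no cell. These shares describe the 22 cells and have no test.

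**Figure D3:**
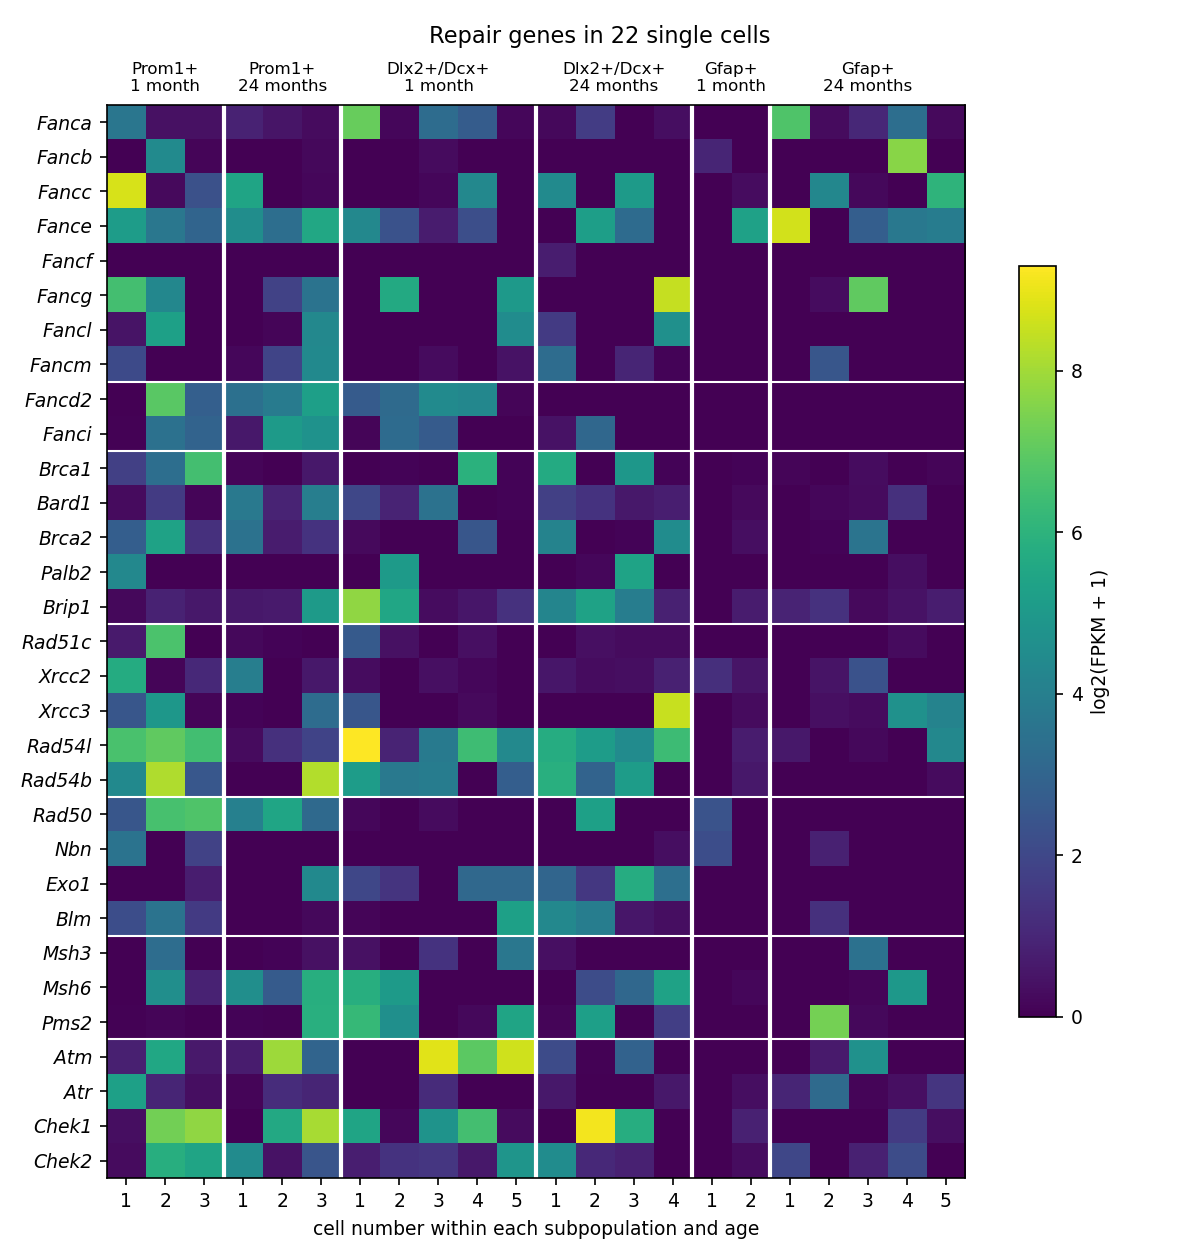
Level of each of the 31 members (rows, by role) in each of the 22 cells (columns, by subpopulation and age), as log2(FPKM + 1). Fance is above 1 FPKM in all 6 Prom1+ cells and 5 of 7 Gfap+ cells, Rad54l and Exo1 in 8 of 9 Dlx2+/Dcx+ cells, and Fancd2 and Fanci in no Gfap+ cell.

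**Figure D4:**
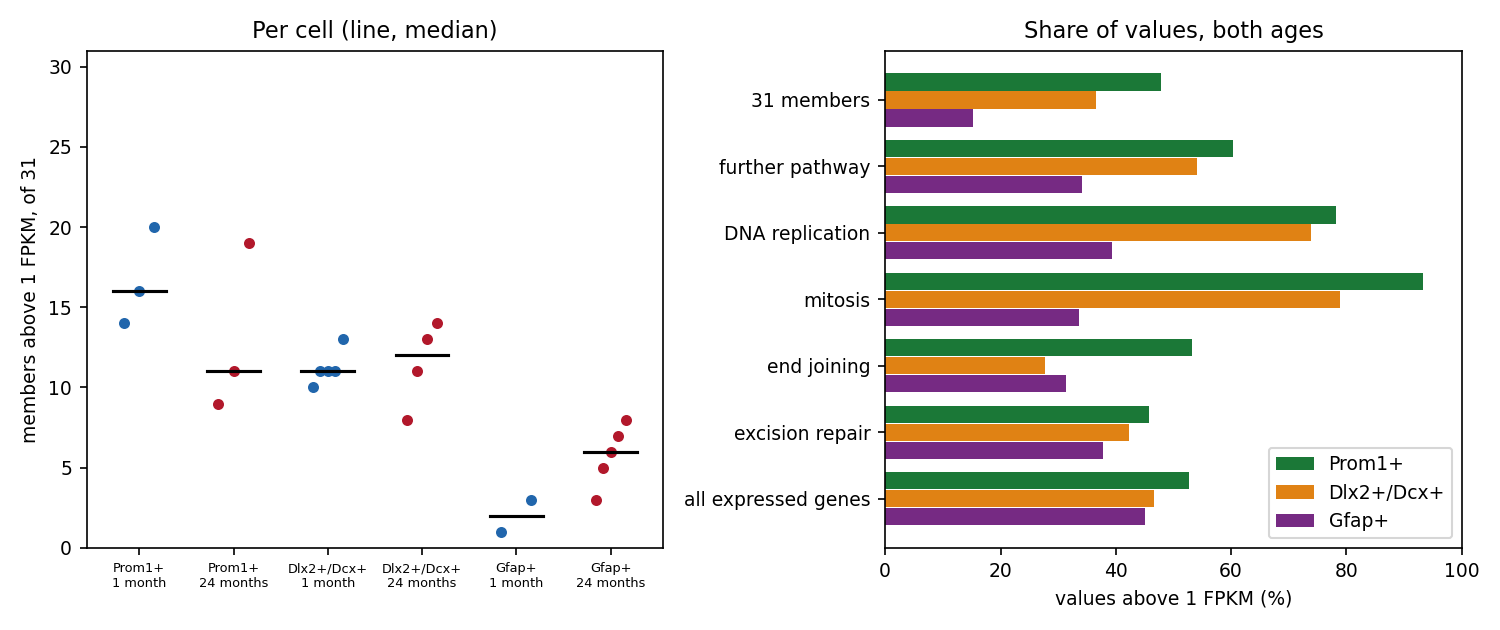
Left, the number of the 31 members above 1 FPKM in each cell by subpopulation and age (blue 1 month, red 24 months), with the median of each group as a line. Right, the share of values above 1 FPKM for the members, for comparison lists and for all 11332 expressed genes in each subpopulation, both ages together, where the members' shares are 47.8%, 36.6% and 15.2%.

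Per cell, 14, 16 and 20 members were above 1 FPKM in Prom1+ cells of 1 month and 9, 11 and 19 in those of 24 months, with medians of 16 and 11 and overlapping ranges. Dlx2+/Dcx+ cells had 10 to 13 of 1 month (median 11) and 8 to 14 of 24 months (median 12). Gfap+ cells had 1 and 3 of 1 month and 3 to 8 of 24 months (median 6). The cells of Gfap+ thus overlapped Dlx2+/Dcx+ cells at a single count, 8. In the Gfap+ cells, 9 of the 31 members were above 1 FPKM in no cell and 15 in 1 of 7 cells. These counts were not made over all expressed genes. Of the values of those genes 45.0% were above 1 FPKM in these cells, against 15.2% for the members.

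By role, the share of values above 1 FPKM was lowest in Gfap+ cells throughout and highest in Prom1+ cells except for mismatch repair. For mismatch repair it was 33.3% in Prom1+, 44.4% in Dlx2+/Dcx+ and 14.3% in Gfap+ cells. Single genes varied more. Of the core complex, Fance was above 1 FPKM in 6 of 6 Prom1+, 5 of 9 Dlx2+/Dcx+ and 5 of 7 Gfap+ cells, the highest number of cells of any member, 16 of 22. In Gfap+ cells it ranged from 0 to 408 FPKM, so it was the member most often detected where few were. Fancm, the motor that brings the core complex to DNA, was above 1 FPKM in 3 Prom1+, 1 Dlx2+/Dcx+ and 1 Gfap+ cell, and Fancb in 2 cells of 22. Fancd2 and Fanci, the ID pair, were above 1 FPKM in 5 and 4 of 6 Prom1+ cells, in 4 and 3 of 9 Dlx2+/Dcx+ cells, and in no cell of the 7 Gfap+ ones, where both were listed at 0 in every cell.

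Among the recombination genes, Rad50 and Exo1 are described first because their counts differed most between Prom1+ and Dlx2+/Dcx+ cells, which was seen in the values and was not tested. Rad50 was above 1 FPKM in 6 of 6 Prom1+ cells, at 4.55, 96.1 and 106 FPKM at 1 month and at 15.6, 42.8 and 8.04 at 24 months. Only 1 of the 9 Dlx2+/Dcx+ cells and 1 of the 7 Gfap+ cells had it above 1 FPKM. Exo1 was above 1 FPKM in 1 of 6 Prom1+ cells, 8 of 9 Dlx2+/Dcx+ cells and 0 of 7 Gfap+ cells. Its values in Dlx2+/Dcx+ cells were 2.97, 1.66, 0, 7.91 and 7.8 FPKM at 1 month and 7.27, 1.83, 53.1 and 9.4 at 24 months. Brip1 was likewise above 1 FPKM in 6 of 9 Dlx2+/Dcx+ and 1 of 6 Prom1+ cells, and Pms2 in 5 of 9 and 1 of 6. Rad54l was above 1 FPKM in 5 of 6 Prom1+ and 8 of 9 Dlx2+/Dcx+ cells but in 1 of 7 Gfap+ cells, and Rad54b in 4, 7 and 0. Brca1 was above 1 FPKM in 3 Prom1+ and 3 Dlx2+/Dcx+ cells and in no Gfap+ cell, Bard1 in 3, 4 and 1, Brca2 in 5, 3 and 1, and Palb2 in 1, 2 and 0. Among the sparsest were Nbn, above 1 FPKM in 3 of 22 cells, and Rad51c, in 2 of 22, although the tissue levels of Nbn were among the highest of the members.

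Of mismatch repair, Msh6, which recognises single mismatches, was above 1 FPKM in 4 Prom1+, 5 Dlx2+/Dcx+ and 1 Gfap+ cell, and Msh3 in 1, 2 and 1. The order of Msh3 in these cells was thus unlike its place in the tissue, where it was among the 4 highest members. Of the kinases, Chek1 was above 1 FPKM in 4 Prom1+, 5 Dlx2+/Dcx+ and 1 Gfap+ cell, and Chek2 in 4, 5 and 2. Atm was above 1 FPKM in 3, 5 and 1 cells. Among Dlx2+/Dcx+ cells of 1 month it was at 465, 123 and 394 FPKM beside 2 cells listed at 0. In 1 Prom1+ cell of 24 months it was at 245 FPKM. Atr was above 1 FPKM in 2, 1 and 2 cells.

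Between the ages, more members of the Prom1+ cells were lower at 24 months than at 1 month. The difference of mean log2(FPKM + 1) was below −1 for 15 of the 31 members and above 1 for 8, with a median of −0.95 over the 31 and of 0.00 over all expressed genes. Of the 28 members among the 11332 expressed genes, 13 (46.4%) were lower beyond 1, against 24.0% of all expressed genes, and 8 (28.6%) were higher beyond 1, against 22%. Leaving out cells moved the median from −1.39 to −0.18, and the smallest was without cell 2 of 1 month, which alone held 20 members above 1 FPKM. Without cell 1 of 1 month it was −0.36. With medians over the 3 cells in place of means it was −0.14. In the same cells the share of values above 1 FPKM was 77.8% at 1 month and 78.7% at 24 months for the replication list. It was 96.7% and 90% for the mitosis list. On the log2 scale the mitosis list averaged 6.731, 5.589 and 6.86 per cell at 1 month and 6.694, 5.01 and 4.298 at 24 months. The replication list averaged 3.879, 5.773 and 4.202 against 4.25, 3.091 and 5.865. The members averaged 2.288, 3.378 and 1.817 against 1.345, 1.415 and 2.834. The part of the lists in the members' values was not tested.

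**Figure D5:**
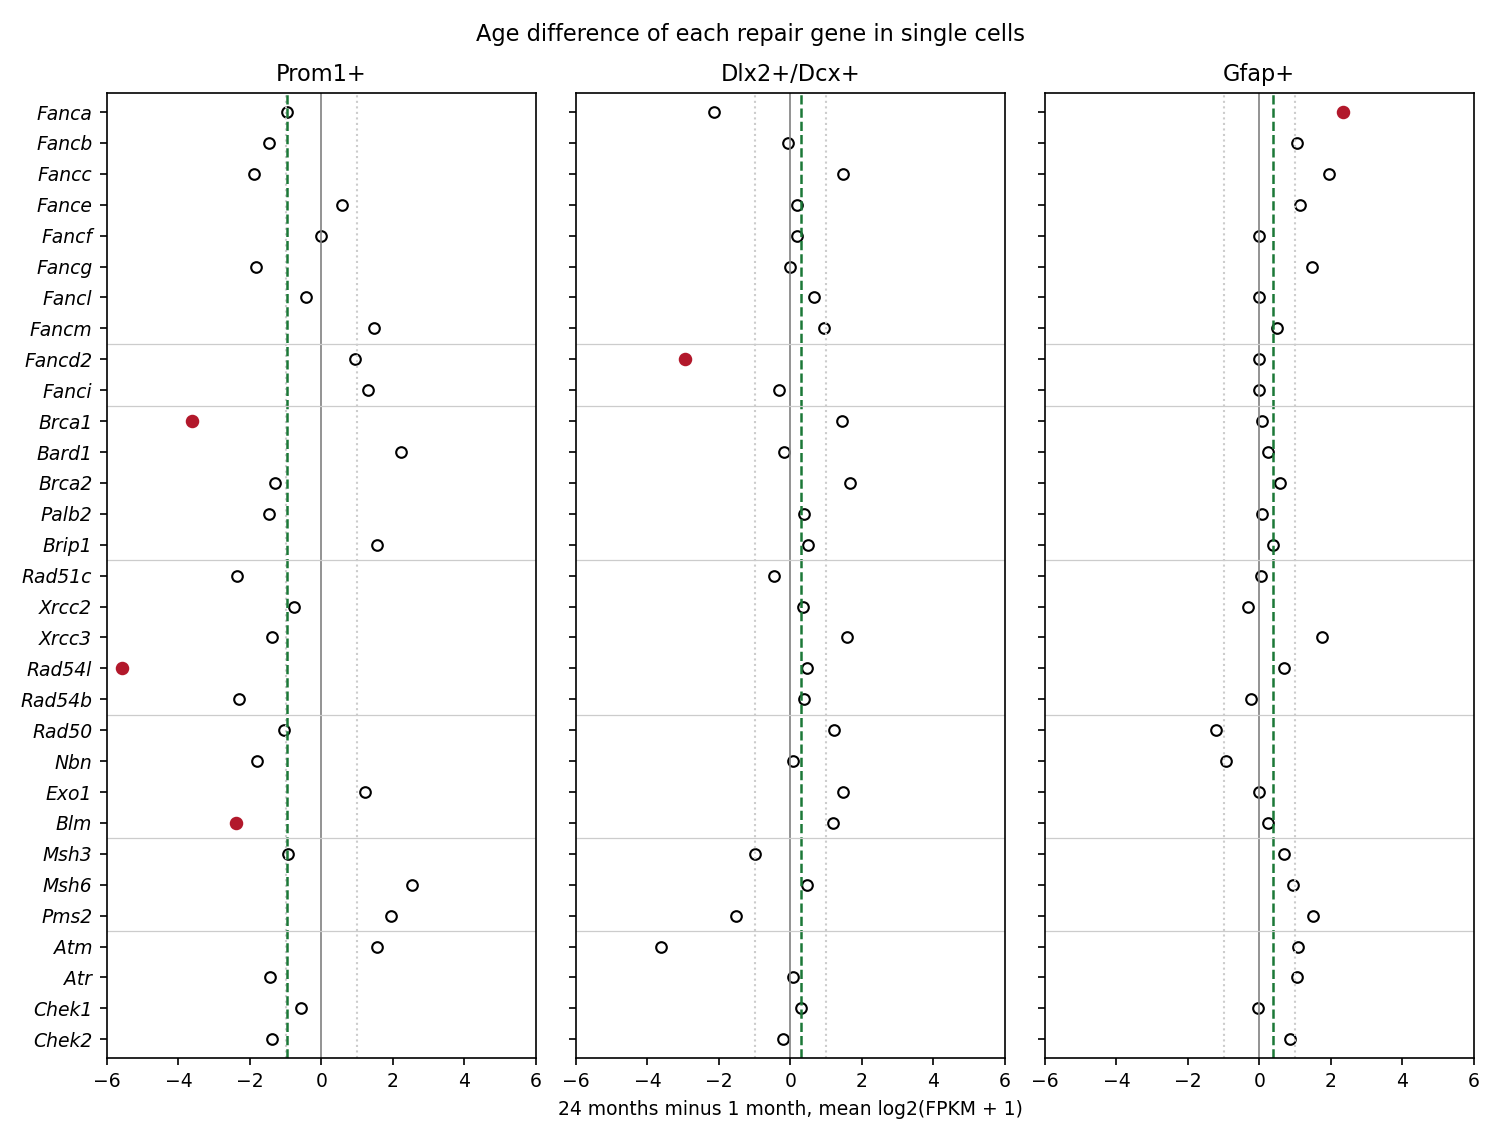
Age difference of each member in the 3 subpopulations (24 months minus 1 month, mean log2(FPKM + 1), 1 point a member). Red points are members whose cells of the 2 ages do not overlap, dotted lines mark −1 and 1, and the green dashed line is the median of the 31 members, −0.95 in Prom1+, 0.29 in Dlx2+/Dcx+ and 0.39 in Gfap+ cells.

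In 3 members every Prom1+ cell of 24 months lay below every cell of 1 month, as in 4.1% of the expressed genes, and in 0 every cell lay above, as in 3.9%. The 3 were Rad54l, Brca1 and Blm. Rad54l was at 98.1, 130 and 88.6 FPKM at 1 month and at 0.216, 1.44 and 2.69 FPKM at 24 months, the widest gap of any member in the cells (5.57 lower on the mean log2 scale, from 6.72 to 1.15). Brca1 was at 2.36, 9.16 and 90.7 FPKM at 1 month and 0.0829, 0 and 0.534 FPKM at 24 months. Blm was at 3.63, 10.7 and 2.0 FPKM at 1 month and was listed at 0 in 2 cells of 24 months and at 0.138 in the third. Members in the other direction included Msh6, with a difference of 2.53 on the mean log2 scale (0, 23.2 and 0.866 FPKM at 1 month, 23.4, 5.3 and 55.7 at 24 months), and Bard1, with 2.22 (0.218, 2.06 and 0.0804 against 12.5, 0.912 and 14.8 FPKM). Both overlapped between the ages. Bard1 and Brca1, which encode partners, thus differed in opposite directions in these cells.

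In Dlx2+/Dcx+ cells the members did not show the balance of the Prom1+ cells. The median difference was 0.29, beside −0.14 over all expressed genes, with 4 members lower beyond 1 and 7 higher, all among the 28 expressed members (14.3% against 27.1% of expressed genes, and 25.0% against 16.6%). The median was 0.0833 without cell 4 of 1 month, between 0.13 and 0.18 without cell 3 or 5 of 1 month or cell 2, 3 or 4 of 24 months, and 0.0853 with medians over cells. In 1 member, Fancd2, every cell of 24 months lay below every cell of 1 month, as in 1.08% of the expressed genes, and 0 were apart in the other direction, as in 0.644%. Fancd2 was at 5.39, 8.24, 21.1, 18.7 and 0.0876 FPKM at 1 month and listed at 0 in all 4 cells of 24 months. This is 4 of 5 cells above 1 FPKM at 1 month and 0 of 4 at 24 months. Among all cells Actb and Hprt too were at times listed at 0, while the other common genes named above were not. In Prom1+ cells Fancd2 was at 0, 120 and 6.04 FPKM at 1 month and at 9.87, 13.6 and 37.0 at 24 months, with no such gap. Rad54l, with 629, 0.887, 13.2, 83.8 and 19.9 FPKM at 1 month and 53.5, 34.1, 21.5 and 82.7 at 24 months, did not have the gap it had in Prom1+ cells. The difference between the subpopulations was not tested. In the same Dlx2+/Dcx+ cells the mitosis list was above 1 FPKM in 99.0% of values at 1 month and 53.8% at 24 months and the replication list in 65.0% and 84.7%, and their part in the members' values was not tested.

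In Gfap+ cells, with 2 cells of 1 month, the median difference of the members was 0.39, beside 0.15 over all expressed genes. Of the 31, 1 was lower and 9 were higher beyond 1, and of the 28 expressed members 1 (3.6%, against 19.6%) and 8 (28.6%, against 29.6%). Ages were apart in 0 members in the lower direction, as in 3.1% of expressed genes, and in 1 in the higher direction, as in 2.8%. This was Fanca, listed at 0 in both cells of 1 month and at 107, 0.203, 1.06, 9.36 and 0.18 FPKM at 24 months. Without cell 1 of 1 month or cell 2, 3 or 4 of 24 months the median lay between 0.08 and 0.17, and with medians over cells it was 0.00. The number of genes above 1 FPKM was 4398 and 5491 in the cells of 1 month and 5069 to 6061 in those of 24 months, and its part in the difference was not tested.

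Set side by side, the 3 members apart between the ages in Prom1+ cells, Rad54l, Brca1 and Blm, were also apart in the tissue in the same direction, 3 of 3 of the former and 3 of the 9 of the latter, from other ages and other samples. Of all 367 expressed genes apart in this direction in Prom1+ cells and present in the tissue table, 55 (15%) were so in the tissue, as were 12.9% of all 8726 expressed genes present there. With 3 members nothing is read from the joint count. The other 6 of the 9 did not share this. Fanca was lower at 24 months in Prom1+ cells with overlap (11.6, 0.332 and 0.337 against 0.833, 0.427 and 0.198 FPKM) and so was Palb2, while Fanci, Bard1, Brip1 and Exo1 had higher means at 24 months there. The 1 member apart in Dlx2+/Dcx+ cells, Fancd2, overlapped in the tissue. The 7 members with an E2F match in their window included 1, Bard1, of the 9 apart in the tissue, while Brca2, Rad51c, Msh3, Chek2 and Fancg overlapped there and Msh6 was not analysed.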

How the data were processed

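RNA was sequenced in 6 tissue samples and 22 single cells, and the authors deposited 1 FPKM value per gene and sample in both tables. The submitters' processing notes name GRCm38, HISAT2, StringTie and featureCounts for all samples, and the methods describe alignment with HISAT2 and estimation with StringTie for the single-cell libraries. Versions are not given in the sources used here. No counts were used, so depth was estimated from the steps of the tissue values. 0 columns of other samples were present. Groups came from the labels.

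The 31 members and the lists were chosen with earlier results of these data known. For the tissue, limma 3.58.1 under R 4.3.3 was fitted to log2(FPKM + 1) with age alone and a trended prior, keeping genes that reached 1 FPKM in 3 or more of the samples, with Benjamini-Hochberg adjustment over the 12287 genes, and a call was an adjusted p under 0.05. The scale understates changes of low genes. The code was tested on simulated data with the spread of the tissue samples. It recovered 35.5% of the genes changed by 1 and 76.0% of those changed by 2 on the log2 scale. Cells were described with Python 3.11.15, numpy 2.4.6 and pandas 2.3.3, with 1 FPKM as the threshold and genes above it in at least 3 cells called expressed. Gene positions and overlaps are from GENCODE M21, sequences from RefSeq windows of GRCm38.p6, the patch release of the same build. For Rad54b, listed under 2 identifiers in the cells, the annotated one was used. All 31 members were named, with Mki67 and, of the pathway and process lists, up to 3 called genes of largest change in each direction, while marker genes served the check of cell types only. Ttk was named after its values were seen. Some further genes outside the 31 that this naming rule covers are not reported here. Alternatives were another pseudocount, no filter, TPM scaling, quantile normalization, a replicate block, no trend, other thresholds in cells, medians, and each sample or cell left out. The coordinates listed beside the cells were left out.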

Additional observations from a re-analysis of the deposited data

Results flagged for a closer look

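In each group of 4 or more cells, the highest or lowest value of a member was compared with its nearest neighbour by Dixon's test. The values below are in FPKM and stood apart from the other cells of their group. This was so in 36 of the 93 combinations of member and group, of which the 28 with a value above 1 FPKM are given. Chance alone sets apart about 1 in 20 groups, and values near 0 in the other cells make such gaps frequent.

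Among Dlx2+/Dcx+ cells of 1 month, cell 4 stood apart for Fancc (19.25), Brca1 (59.66) and Brca2 (4.665), and cell 5 for Fancl (22), Blm (38.44) and Chek2 (28.01). Cell 1 stood apart for Rad51c (5.259) and Xrcc3 (4.57), cell 2 for Palb2 (32.12) and cell 3 for Atr (1.2). The high values of Brca1 and Blm in this group thus came from different cells.

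Among Dlx2+/Dcx+ cells of 24 months, cell 4 stood apart for Fancg (352.0) and Xrcc3 (366.0), cell 2 for Fanci (7.639) and Rad50 (37.88), and cell 3 for Palb2 (40.81). Cell 4 was also the lowest of its group in the mean log2 level over the 31 members, at 1.535.

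Among Gfap+ cells of 24 months, cell 4 stood apart for Fancb (199.3), Bard1 (1.442), Msh6 (29.92) and Chek1 (2.049). Cell 3 stood apart for Fancg (128.9), Brca2 (10.95), Xrcc2 (4.098), Msh3 (10.1) and Atm (24.81), and cell 2 for Fancm (4.613), Blm (1.419) and Pms2 (163.1). Cell 5 stood apart for Rad54l (19.39). Most members found in these cells were therefore found in a single cell.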

How the results depend on the processing

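No tested member was called lower or higher at 18 months in the main analysis. Exo1 alone was called lower, 1 member in each case, without the filter, with TPM scaling, and without the filter together with a pseudocount of 0.1, the last chosen after the data were seen. In all of these it entered the test, from which the filter on FPKM had kept it, and with TPM it did so through its samples of 3 weeks alone. Under every setting 0 members were called higher. The median log2 fold change of the members lay between −0.061 and 0.0919 when each tissue sample was left out, and the highest was reached without replicate 1 of 18 months. Same-numbered samples of the 2 ages did not deviate together (r of −0.096, −0.011 and −0.098). The values thus gave no sign of pairing by number, which so few samples cannot exclude. With the replicate block the median was −0.01, 0 members were called, and 17 genes were called in all against 605. Other settings called 414 (no filter), 530 (pseudocount 0.1), 682 (TPM), 591 (quantile) and 592 (no trend) genes, and leaving out a sample 134 to 719. Of the 21 tested members, 10 kept their sign under all settings, and the 8 below the filter were fitted only without it or with TPM and kept theirs. When a tissue sample was left out, the log2 fold changes on both sides of 0 were those of Fancb (−0.19 to 0.0169), Fancf (−0.16 to 0.51), Fancd2 (−0.173 to 0.10), Brca2 (−0.0847 to 0.69), Rad51c (−0.137 to 0.0087), Xrcc3 (−0.186 to 0.13), Rad50 (−0.207 to 0.20), Nbn (−0.086 to 0.11), Msh3 (−0.0463 to 0.358) and Atr (−0.0715 to 0.165). The sign also changed for Xrcc2 (−0.0058) and Atr (−0.0674) with quantile normalization and for Nbn (0.0198) with TPM.

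In cells, the median number of members above 0.1 FPKM was 23 and 17 in Prom1+ cells of 1 and 24 months, 16 and 17 in Dlx2+/Dcx+ and 8.5 and 12 in Gfap+ cells. Above 5 FPKM it was 11 and 9 in Prom1+, 8 and 9.5 in Dlx2+/Dcx+ and 0.5 and 4 in Gfap+ cells of 1 and 24 months. With a pseudocount of 0.1 the median age difference was 0.55 in Dlx2+/Dcx+ and 0.64 in Gfap+ cells, and with medians over cells it was 0.00 in Gfap+ cells. When cells were left out it ranged from −1.39 to −0.18 in Prom1+, 0.08 to 0.38 in Dlx2+/Dcx+ and 0.0846 to 0.50 in Gfap+ cells. The read depth of the cells, which the study lists, was not used here and could not be read from the FPKM values, and with 2 to 5 cells a group the shares of cells are wide.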
